A study of Mus musculus with 7 samples.

Results

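Ribosome biogenesis factors are the nucleolar proteins that make ribosomal RNA, trim and modify it, and assemble it with ribosomal proteins into the small (40S) and large (60S) subunits. The set described here holds 32 mouse genes, all found by symbol among the 28786 Ensembl genes of the deposited count table. The libraries were made from cells sorted from bone marrow as haematopoietic stem cells (HSCs), taken either from control mice or from C57BL/6J mice with MC38, a mouse colon carcinoma. All mice were 6 to 8 weeks old and each library came from 1500 sorted cells. The series asks how a tumour turns HSCs towards myeloid output. The strain of the controls is given only by the series design, which names C57BL/6J for normal and tumour mice together. The sources used here do not state the sort gates, or how and when tumours were started. They also do not say that each library was a separate animal, so the p-values measure only library-to-library spread, part of which may be technical.

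RNA polymerase I copies the ribosomal DNA into a long precursor. Small nucleolar ribonucleoproteins (snoRNPs) then modify it: box C/D particles methylate ribose and box H/ACA particles convert uridine to pseudouridine. The small subunit processome cuts out the 40S precursor, and the PeBoW complex and its partners build the 60S precursor. The pathway is a main consumer of a growing cell's energy and a well-known target of the transcription factor Myc. HSCs at rest are known for low protein synthesis, which rises as they cycle and differentiate.

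Values below come from control replicates 1 and 2 and MC38 replicates 1 to 4, whose totals were between 12131546 and 17657037 counts. The deposited column of control replicate 3 was left out because it is not an independent library by its counts. In 9652 genes with at least 200 summed counts, its ratio to their sum had a median of 0.353, with 95% of genes between 0.341 and 0.371, and the 32 members lay between 0.343 and 0.373. Levels are CPM, counts scaled to library size with TMM factors, and fold changes are MC38 over control. Every member passed the filter on low counts, with at least 141 counts in each library used. The HSC markers Kit, Procr and Slamf1 were detected in every library used. Kit stood between 297 and 383 CPM, Procr between 81.4 and 98.9 CPM and Slamf1 between 24.8 and 35.1 CPM. None of these 3 passed the test (edgeR adjusted p = 0.731, 0.607 and 0.928). They come from a list of 12 HSC markers, none of which passed. In 5 of the 12, Procr among them, every MC38 library lay above both controls, and in none did every one lie below. Of the 12, Ly6a had the smallest adjusted p (log2 fold change 0.65, edgeR adjusted p = 0.0522).

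As a set these genes lay slightly lower in the MC38 libraries, mostly without passing the test. A single member, Polr1c, passed the test and fell, and none of the 32 rose (edgeR, adjusted p under 0.05 over 14226 genes). Over all genes tested 0.569% were called lower and 1.04% higher. At an unadjusted p under 0.05, 3 members were lower (Polr1c, Fbl and Nhp2) and 1 was higher (Nop56), against 8.22% and 9.26% of all genes. DESeq2 called Nop56 higher and Polr1c lower, but it also called several times as many genes in all as edgeR (counts under the alternatives below). In 10 of the 32 members every MC38 library lay below both controls, a share of 31.2%, against 15.0% of all genes tested. In 4 members every MC38 library lay above both controls, against 14.0% of all genes. The median log2 fold change was -0.18 for the members and 0.01 for all genes, and 19 members were below 0 and 13 above.

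The members together took 0.390% and 0.401% of all counts in the control libraries, and 0.341%, 0.350%, 0.384% and 0.380% in MC38 libraries 1 to 4. All MC38 libraries were below both controls, but libraries 3 and 4 came close to control replicate 1. The means were 0.396 ± 0.0079% and 0.364 ± 0.0215% (SD, n = 2 and 4). Npm1 and Ncl are the most abundant members by CPM and weigh heavily in this sum. These are bulk libraries, in which fewer cells of a type and less RNA per cell cannot be told apart.

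Because the promoter letters are used below, they are shown here first. RefSeq promoter windows (GRCm38.p6, 250 bases before to 50 after a start) were found for 27 of the 32 members, and Bop1, Fbl, Npm1, Rrp12 and Rrs1 had no entry. The sequence CACGTG, the palindromic E-box that Myc and Max bind, stood in the windows of 9 of the 27 members (33.3%). It stood in 16.1% of 112 other pathway genes, 10.7% of 56 ribosomal protein genes and 11.5% of 10470 tested genes. Wdr12 and Ubtf have several windows each, none with a match. The E-box of each of the 9 members is shown in capitals with up to 12 bases on either side, 5′ to 3′ on the gene's strand. The window ends cut the runs of Utp20 and Mybbp1a short.
Wdr43, chr17:71616220-71616249, plus strand: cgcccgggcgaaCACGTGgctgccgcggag
Utp4, chr8:106893643-106893672, plus strand: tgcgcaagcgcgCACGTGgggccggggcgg
Utp18, chr11:93885769-93885798, minus strand: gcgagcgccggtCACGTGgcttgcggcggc
Utp20, chr10:88826765-88826789, minus strand: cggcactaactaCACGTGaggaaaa
Ltv1, chr10:13193092-13193121, minus strand: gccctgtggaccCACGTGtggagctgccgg
Tsr1, chr11:74898092-74898121, plus strand: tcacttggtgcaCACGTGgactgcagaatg
Pes1, chr11:3963965-3963994, plus strand: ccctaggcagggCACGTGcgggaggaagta
Nop2, chr6:125131811-125131840, plus strand: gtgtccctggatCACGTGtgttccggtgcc
Mybbp1a, chr11:72441355-72441376, plus strand: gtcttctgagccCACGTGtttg

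In Nop2 and Utp18 the motif began 60 and 20 bases before the start, and in the other 7 it began between base 3 and base 41 of the transcript. Of the small subunit processome members, 4 of 5 held it, and of the snoRNP members none with a window did. A second set shows the 120 bases before the outermost annotated start of Polr1c, the called member, and of Polr1b and Nop56, whose MC38 libraries all lay on the other side of the controls. Capitals mark the GC box GGGCGG and the ETS core CCGGAA on either strand. CCAAT was searched too and does not stand in these runs. The 3 motifs do not overlap the E-box and were chosen after the values were seen.
Polr1c, chr17:46248055-46248174, minus strand: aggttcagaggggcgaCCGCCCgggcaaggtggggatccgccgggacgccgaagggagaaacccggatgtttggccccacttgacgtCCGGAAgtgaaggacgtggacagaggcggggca
Polr1b, chr2:129100850-129100969, plus strand: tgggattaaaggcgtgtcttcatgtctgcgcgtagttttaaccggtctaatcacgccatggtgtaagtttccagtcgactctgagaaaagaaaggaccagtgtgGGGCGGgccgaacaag
Nop56, chr2:130274247-130274366, plus strand: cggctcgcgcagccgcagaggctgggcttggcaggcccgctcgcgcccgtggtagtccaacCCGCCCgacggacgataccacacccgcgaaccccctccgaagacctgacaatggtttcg
The GC box stood in the windows of 70.4% of members and 66.5% of tested genes, the ETS core in 48.1% and 30.2%, and CCAAT in 37% and 43.2%. A match is a string of letters and does not show that a factor binds there.

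The RNA polymerase I group held the 1 called member, and its members differed in direction. Polr1c encodes a subunit that RNA polymerases I and III share (ENSMUSG00000067148, mm10 chromosome 17: 46243920 to 46248054, minus strand). It stood at 98.4 and 84.3 CPM in the controls and at 60.7, 49.6, 50.2 and 55.6 CPM in the MC38 libraries. The groups did not overlap, and the highest MC38 library was well under the lower control. It fell from 91.3 ± 9.98 to 54.0 ± 5.23 CPM (SD, n = 2 and 4), with log2 fold change -0.76, SE 0.15 and edgeR adjusted p = 0.0465. The exact permutation p over the 15 splits of 6 libraries was 0.0667, the smallest that this design allows. The call lies close to the threshold and depends on single libraries. Leaving out control 1 or control 2 gave an edgeR adjusted p of 0.29 or 0.108, and leaving out MC38 library 2, 3 or 4 gave 0.147, 0.0528 or 0.146. Scaling by library total, by upper quartile, limma-voom and the removal of immunoglobulin genes gave 0.0516, 0.0511, 0.0531 and 0.0582. Over all 15 alternatives the adjusted p ran from 0.00128 to 0.29, it passed in 6, and the log2 fold change stayed between -0.86 and -0.64. The 6 include the fit with control replicate 3, which is not an independent library (edgeR adjusted p = 0.00596). They also include a block by replicate number, for which no pairing is stated (edgeR adjusted p = 0.0457).

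Polr1b, the second largest subunit of RNA polymerase I, stood at 34.2 and 32.4 CPM in control and at 48.3, 38.9, 41.5 and 42.9 CPM in MC38 libraries. Every MC38 library was above both controls, but the gene did not pass (log2 fold change 0.36, SE 0.18, edgeR adjusted p = 0.323). Polr1a, the largest subunit, ranged from 7.85 to 29.1 CPM within MC38, with library 3 far below the others, and overlapped the controls at 20.6 and 31.4 CPM (edgeR adjusted p = 0.663). Ubtf, which opens the ribosomal DNA for the polymerase, was at 128 ± 7.55 and 114 ± 9.27 CPM without overlap (edgeR adjusted p = 0.564). Polr1d, another subunit of polymerases I and III, was at 161 ± 13.8 and 162 ± 16.2 CPM (edgeR adjusted p = 0.97).

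**Figure D1:**
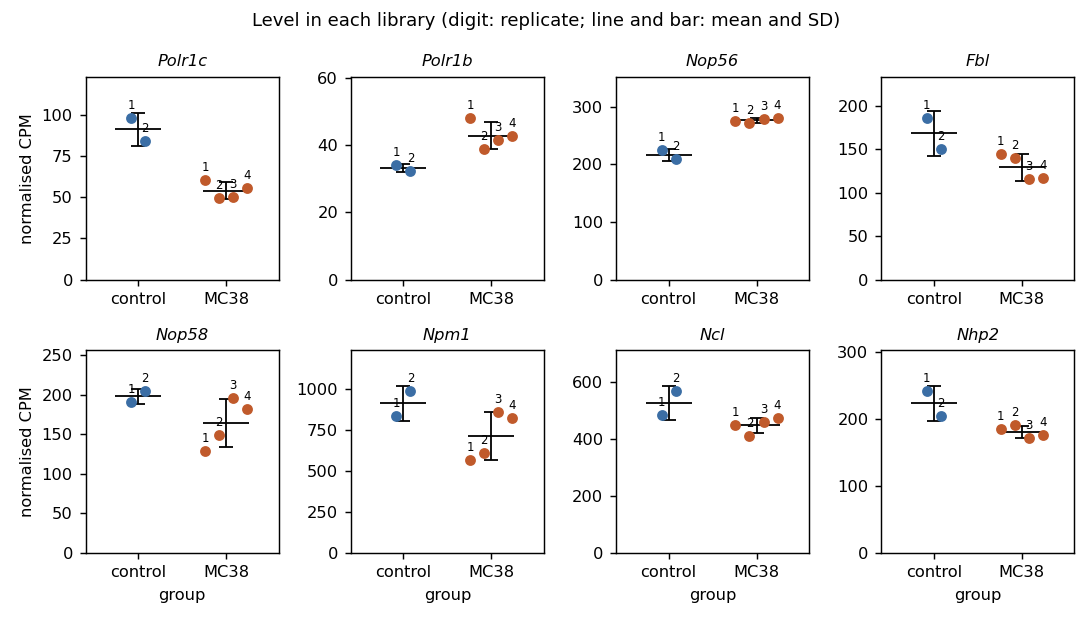
Normalised CPM (vertical axes, from 0) of 8 members in the 2 control and 4 MC38 libraries used. Digits give the replicate, and the line and bar give mean and SD. Polr1c, Fbl, Ncl and Nhp2 are lower and Nop56 and Polr1b higher in every MC38 library than in both controls, and only Polr1c passed. MC38 libraries 3 and 4 of Npm1 and Nop58 reach the control range or come near it.

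None of the box C/D snoRNP genes passed, and their log2 fold changes differed in sign. Nop56, a scaffold of the particle, stood at 224 and 209 CPM in control libraries and at 275, 272, 279 and 282 CPM in MC38 libraries. Those 4 values lie closer together than in any other member, with a coefficient of variation of 1.5% against a median of 12.1% over the members. Its log2 fold change was 0.35 (SE 0.11, edgeR adjusted p = 0.132), which did not pass, although DESeq2 gave an adjusted p of 0.0182. Nop58, the paired scaffold, stood at 192 and 205 CPM in control and at 129, 150, 196 and 182 CPM in MC38 libraries. MC38 library 3 lay between the controls, and the difference did not pass (log2 fold change -0.27, SE 0.17, edgeR adjusted p = 0.441). Fbl, the methyltransferase fibrillarin, stood at 186 and 150 CPM and at 144, 140, 115 and 116 CPM. All MC38 libraries were below both controls by little for the nearest (log2 fold change -0.38, SE 0.15, edgeR adjusted p = 0.226). Rrp9, which joins the U3 particle, overlapped between groups, with MC38 library 4 lowest at 22.0 CPM (edgeR adjusted p = 0.536).

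In the box H/ACA group 3 of the 4 genes lay lower without overlap, against 15.0% of all genes tested, though none passed. Nhp2, a small RNA-binding core protein, stood at 242 and 205 CPM in control and at 184, 191, 172 and 176 CPM in MC38 libraries (log2 fold change -0.31, SE 0.12, edgeR adjusted p = 0.228). Gar1, another core protein, stood at 57.0 and 55.2 CPM and at 52.7, 36.7, 26.4 and 44.0 CPM, with a wide spread among MC38 libraries (edgeR adjusted p = 0.349). Nop10 averaged 409 ± 3.82 CPM in the controls against 365 ± 30.7 CPM with MC38 (edgeR adjusted p = 0.516). Dkc1, the pseudouridine synthase dyskerin, differed from its partners: MC38 libraries 1 and 2 were at 111 and 110 CPM, inside the control range of 109 to 116, and libraries 3 and 4 were at 146 and 142 CPM. The difference did not pass (log2 fold change 0.18, edgeR adjusted p = 0.62).

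**Figure D2:**
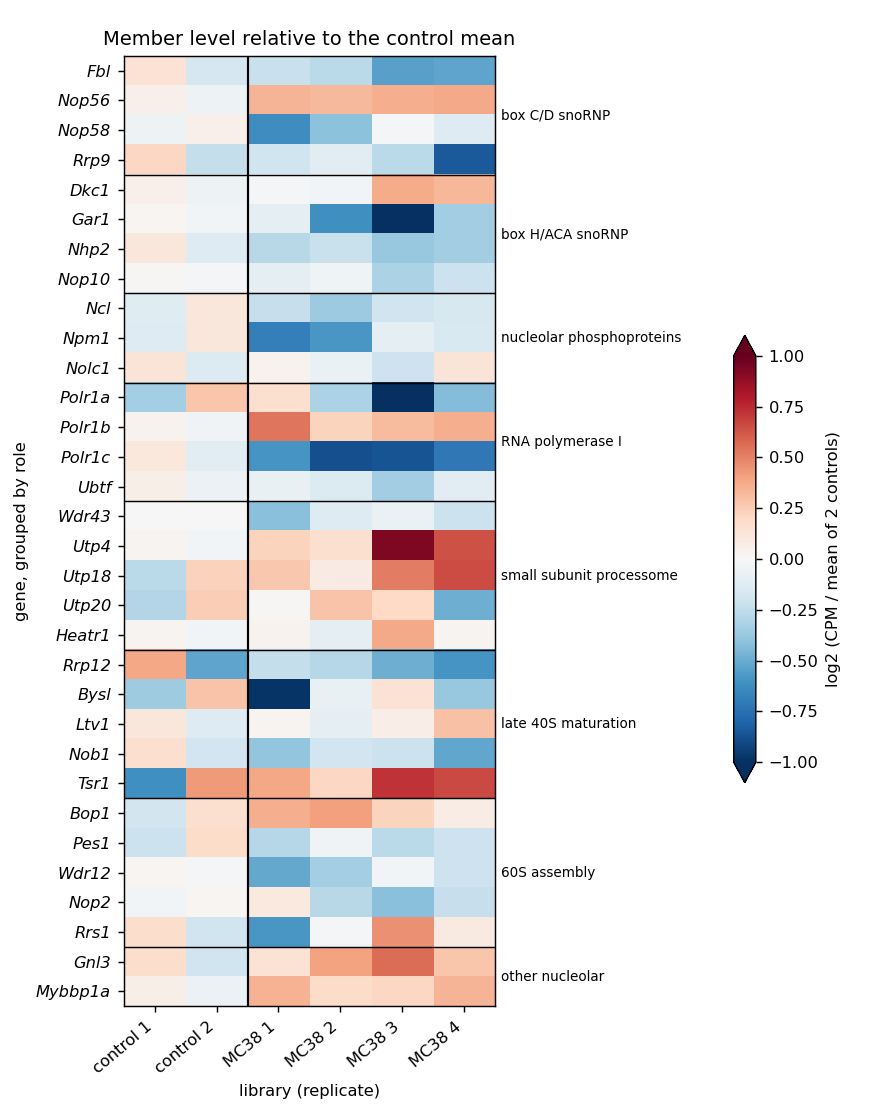
Colour gives the log2 ratio of each library's CPM to the mean of the 2 controls for the 32 members (rows, grouped by role) in 6 libraries (columns), with ratios beyond 1 or -1 drawn in the end colours. All 4 MC38 libraries lie below the control mean in 15 members, Polr1c among them, and above it in 8, Nop56 and Polr1b among them, while 9 members have libraries on both sides.

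The abundant nucleolar phosphoproteins lay lower on average, with unequal MC38 libraries. Npm1, the chaperone nucleophosmin, stood at 835 and 988 CPM in control and at 566, 608, 859 and 822 CPM in MC38 libraries. MC38 libraries 1 and 2 were well below both controls, library 3 lay between them and library 4 just under, and the difference did not pass (log2 fold change -0.35, SE 0.18, edgeR adjusted p = 0.351). Ncl, which encodes nucleolin, stood at 486 and 570 CPM and at 449, 411, 459 and 473 CPM. The groups did not overlap, with the nearest libraries close together (log2 fold change -0.24, SE 0.12, edgeR adjusted p = 0.329). Nolc1, a snoRNP chaperone, was at 81.9 ± 10.7 and 80.5 ± 7.93 CPM (edgeR adjusted p = 0.955). Npm1 has many processed copies in the genome, so its counts depend on how shared reads were treated, which no source used here states.

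None of the 5 small subunit processome members passed, with 4 log2 fold changes above 0 and 1 below, while 30 of 39 further processome genes were below 0. Utp4, a part of the subcomplex that binds the start of the precursor, stood at 20.7 and 19.8 CPM in control and at 23.6, 22.6, 38.7 and 31.4 CPM in MC38 libraries. It was higher in all MC38 libraries, most of all in library 3 (log2 fold change 0.52, SE 0.27, edgeR adjusted p = 0.356). Utp18 was at 27.9 ± 6.78 and 36.7 ± 6.34 CPM with overlap (edgeR adjusted p = 0.43). Utp20 and Heatr1, large scaffold proteins, had log2 fold changes of 0.03 and 0.10 (edgeR adjusted p = 0.968 and 0.89). Wdr43, a partner of Utp4, lay the other way: it stood at 95.0 and 94.9 CPM and at 71.2, 87.0, 90.8 and 81.8 CPM, without overlap (edgeR adjusted p = 0.526).

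Late 40S factors ranged from -0.39 to 0.51 on the log2 scale, and none of the 5 passed. Nob1, the endonuclease that makes the mature end of 18S rRNA, stood at 74.8 and 58.4 CPM in control and at 50.5, 58.3, 57.4 and 46.5 CPM in MC38 libraries. The groups did not overlap, but MC38 library 2 all but met control replicate 2 (log2 fold change -0.32, SE 0.17, edgeR adjusted p = 0.375). Tsr1, a late 40S assembly factor, had controls far apart, at 16.1 and 33.3 CPM, and its MC38 libraries lay between 28.4 and 40.8 CPM (edgeR adjusted p = 0.42). Rrp12, Bysl and Ltv1 overlapped between the groups (edgeR adjusted p from 0.56 to 0.881). Tsr1 shares 1240 exonic bases with Srr and Bysl shares 361 with Ccnd3, each on the opposite strand, so without a stated strand setting their reads cannot be told apart.

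The 60S factors and the remaining nucleolar genes also did not pass. Bop1, Pes1 and Wdr12 form the PeBoW complex. Wdr12, the member of smallest p in this group, stood at 68.0 and 66.2 CPM in control and at 47.1, 52.9, 65.8 and 58.0 CPM in MC38 libraries, where library 3 came close to the controls (log2 fold change -0.26, SE 0.17, edgeR adjusted p = 0.477). Bop1 had a log2 fold change of 0.27 and Pes1 of -0.19 (edgeR adjusted p = 0.525 and 0.607). Nop2, an rRNA methyltransferase, and Rrs1 overlapped (edgeR adjusted p = 0.637 and 0.961). Mybbp1a, which represses transcription and shuttles from the nucleolus, stood at 102 and 93.4 CPM and at 124, 111, 113 and 124 CPM, higher in every MC38 library (log2 fold change 0.27, SE 0.13, edgeR adjusted p = 0.305). Gnl3, the GTPase nucleostemin that is known as a marker of stem and dividing cells, was at 82.1 ± 14.8 and 105 ± 13.1 CPM, with MC38 library 1 inside the control range (edgeR adjusted p = 0.314).

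**Figure D3:**
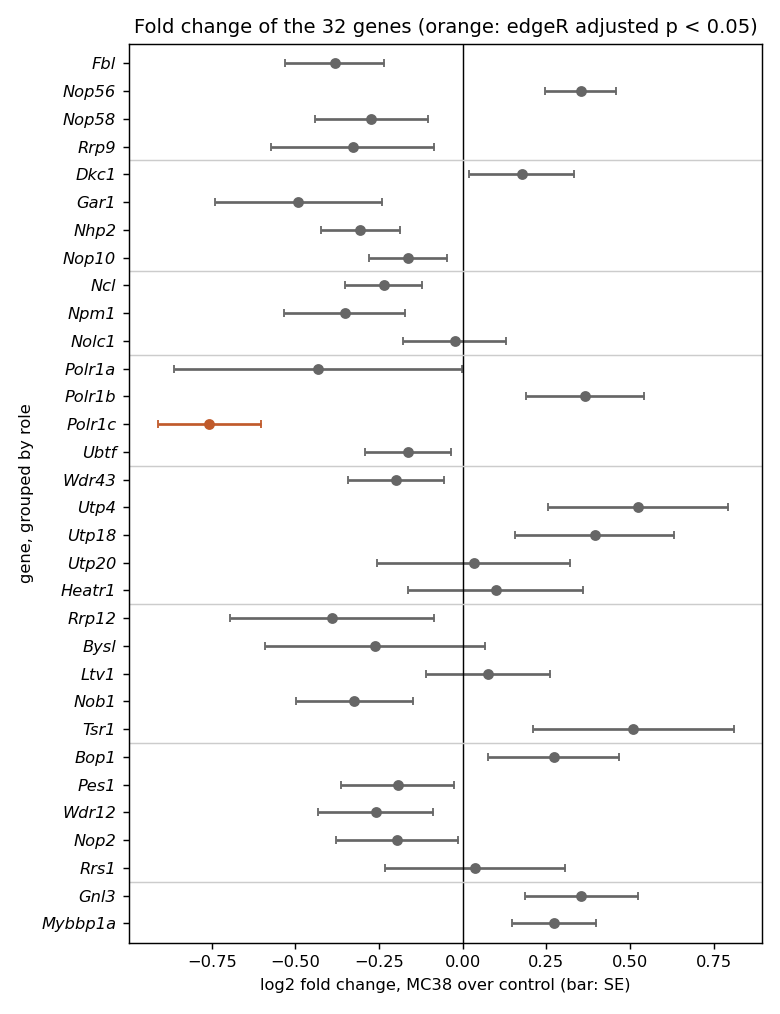
Log2 fold change of MC38 over control (horizontal axis) with its SE for the 32 members, grouped by role from box C/D proteins at the top to other nucleolar genes at the bottom. Values run from -0.76 for Polr1c, the only gene drawn in orange for an edgeR adjusted p under 0.05, to 0.52 for Utp4.

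Levels between genes were compared per kilobase of exon. The length counts all annotated exons of a gene over every transcript, so it can exceed that of the transcripts present and lower the value. In controls the small snoRNP and chaperone genes led, with Nop10 at 369, Npm1 at 342 and Nhp2 at 195 CPM per kb, all above the 97th percentile of tested genes. Nop56 (52.9), Ncl (51.8) and Polr1c (40.1 CPM per kb) followed. The large scaffolds were lowest: Heatr1 stood at 2.02, Utp20 at 2.03 and Polr1a at 2.19 CPM per kb, near the 34th percentile. By this measure Polr1c stood about 18.3-fold above Polr1a, although each is a subunit of the same enzyme. The exon lengths used were 2278 and 11871 bases, and their part in that ratio was not tested.

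A feature that the choice of genes did not use is that several of them host snoRNA genes. Nop56, Nop58, Ncl, Wdr43, Gnl3, Tsr1 and Dkc1 each contain at least 1 snoRNA gene on their own strand in GENCODE M21, with 5 in Nop56 and 4 in Nop58. That is 21.9% of members against 1.61% of the 13252 protein-coding genes tested. Of the 7 hosts, Nop56, Gnl3, Tsr1 and Dkc1 had log2 fold changes above 0, and Ncl, Nop58 and Wdr43 below 0. The libraries were made from polyadenylated RNA, so the levels are those of the host transcripts and say nothing of the snoRNAs.

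Members with an E-box in the promoter window had a median log2 fold change of 0.08, with 6 of 9 above 0. The 18 members with a window and no E-box had a median of -0.25, with 5 above 0, and Polr1c is among them. In the other pathway genes the medians were -0.00 for 18 with the motif and -0.12 for 94 without it. In the ribosomal protein genes the medians were -0.30 for 6 with the motif and -0.31 for 50 without it. Over all tested genes with a window the medians were -0.02 and 0.01. These are descriptions without a test, on members of which 1 passed. Of the Myc network list, Mxd1, an antagonist that shares the partner Max, rose from 133 and 122 CPM to 278, 281, 296 and 295 CPM (log2 fold change 1.17, edgeR adjusted p = 0.000916), and it was the 1 called of 8. Myc itself was at 308 and 289 CPM in control and at 392, 406, 424 and 399 CPM in MC38 libraries, higher in each but past the threshold in only 2 of 15 alternatives (log2 fold change 0.44, SE 0.11, edgeR adjusted p = 0.0726).

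**Figure D4:**
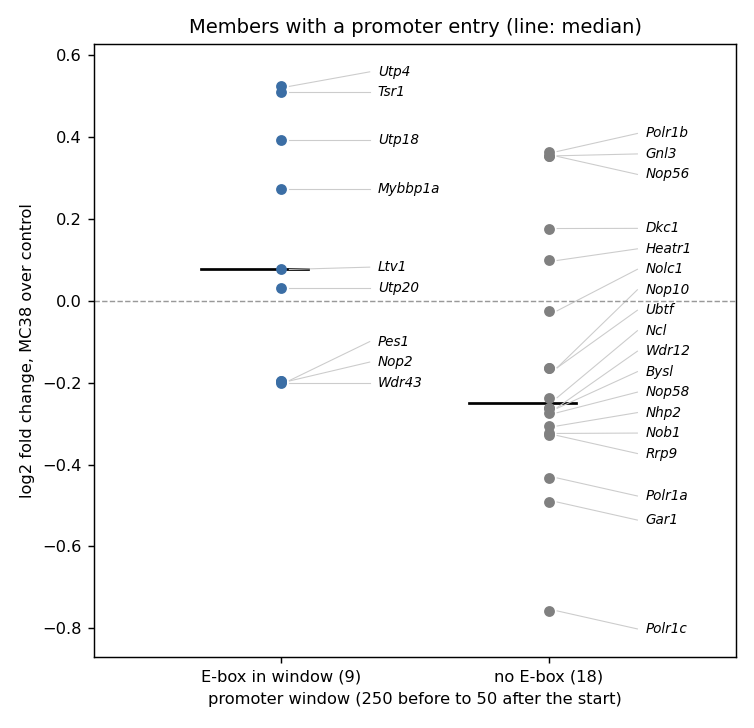
Log2 fold change of MC38 over control (vertical axis) for the 27 members with a promoter window, split by whether CACGTG stands in it. Black lines are medians, 0.08 for the 9 members with the motif and -0.25 for the 18 without, and the 2 sets overlap in part: 10 of the 18 lie below every member with the motif.

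The wider pathway was taken from a list of 137 further factors, of which 134 were tested; Riok2 and Exosc6 were not analysed here and Fbll1 did not pass the filter. None was called in either direction in edgeR, and DESeq2 called 3 lower and 2 higher. At an unadjusted edgeR p under 0.05, 18 were lower and 2 higher, against 8.22% and 9.26% of all genes. The median log2 fold change was -0.10, and 87 of the 134 were below 0. In 30 of them (22.4%) every MC38 library lay below both controls, against 15.0% of all genes tested. In 7 every one lay above, against 14.0% of all genes. By role the medians ran from -0.32 for 9 further snoRNP and assembly factors to 0.10 for 7 further 40S factors, with -0.14 for 39 further processome genes, -0.08 for the further 60S genes and -0.20 for 16 rRNA processing exosome genes.

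A few genes of the wider list, named after their values were seen, belong to different steps, and Taf1c and Rsl24d1 had its smallest adjusted p-values. Taf1c, a subunit of the factor that places RNA polymerase I on its promoter, stood at 14.6 and 11.6 CPM in control and at 29.9, 27.0, 29.0 and 24.1 CPM in MC38 libraries. It was above both controls in every MC38 library but missed the threshold (log2 fold change 1.07, SE 0.24, edgeR adjusted p = 0.0588). Rsl24d1, a 60S assembly factor, stood at 96.7 and 122 CPM and at 72.4, 71.7, 62.6 and 74.9 CPM (log2 fold change -0.63, edgeR adjusted p = 0.0688). Ruvbl1 and Ruvbl2, the helicases that help build snoRNPs, had log2 fold changes of -0.37 and -0.38 without overlap (edgeR adjusted p = 0.189 and 0.16).

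The structural proteins of the ribosome, which these factors assemble, differed more evenly. Of 77 ribosomal protein genes tested, 4 fell (Rps27a, Rpl3, Rplp0 and Rpl8) and none rose in edgeR, against 0.569% and 1.04% of all genes. At an unadjusted edgeR p under 0.05, 41 were lower and 1 higher, against 8.22% and 9.26% of all genes. DESeq2 called 23 lower and 1 higher. The median was -0.32, and 75 of 77 were below 0, against 19 of 32 biogenesis members. They took 9.76% and 10.4% of counts in control and 7.42% to 8.96% in MC38 libraries. Rps27a, for example, fell from 1104 and 1315 CPM to 729, 814, 815 and 817 CPM (log2 fold change -0.61, edgeR adjusted p = 0.0318). The 4 calls are lost without either control, and without MC38 replicate 2 or 4, where no ribosomal protein gene passed, while 19 passed without MC38 replicate 1. Whether the 2 sets differ from each other was not tested. Many ribosomal protein genes have near-identical processed copies, which makes their counts uncertain.

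**Figure D5:**
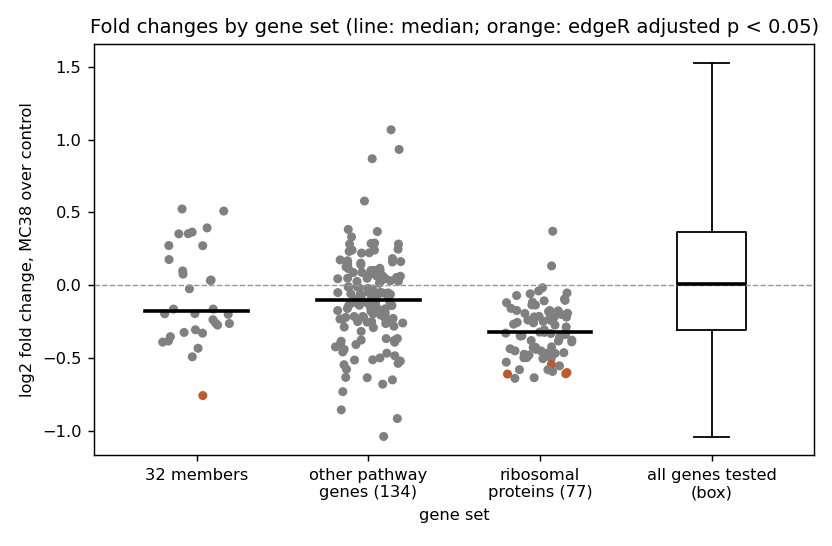
Log2 fold change of MC38 over control (vertical axis) for the 32 members, 134 other pathway genes and 77 ribosomal protein genes, each dot a gene and each line a median. The box gives all tested genes, with quartiles and whiskers at the 5th and 95th percentiles (-1.04 and 1.53). The medians are -0.18, -0.10, -0.32 and 0.01, and orange dots are genes with an edgeR adjusted p under 0.05.

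Other lists moved between the same libraries. Over all genes tested 0.569% were called lower and 1.04% higher, with 8.22% and 9.26% at an unadjusted edgeR p under 0.05. Neutrophil markers took 2.75% and 2.77% of counts in control and 5.46% to 6.08% in MC38 libraries, with 7 of 10 called higher. Most of that share is S100a8 and S100a9. At an unadjusted edgeR p under 0.05, 8 were higher and 1, Fcnb, was lower (log2 fold change -0.38, edgeR adjusted p = 0.245). Cebpe overlapped between the groups (edgeR adjusted p = 0.556). Proliferation genes took 0.106% and 0.108% in control and 0.0806% to 0.0969% in MC38, with 2 of 11 called lower (Top2a and Ccnb1). Genes of the stress of cell isolation took 2.32% and 2.29% and then 1.88% to 1.95%, with 4 of 13 called lower. B cell markers took 0.103% and 0.0933% and then 0.220% to 0.274% (1 of 8 called higher, Ighm). T and NK cell markers took 0.0469% and 0.0408% and then 0.0400% to 0.0438% (none of 7 called in edgeR, 3 higher at an unadjusted p under 0.05). Most of that share is Nkg7, with log2 fold change -0.20, while the other 6 genes were above 0. The 3 are Cd3d, Cd3g and Klrb1c (log2 fold change 0.84, 1.34 and 1.67, edgeR adjusted p = 0.233, 0.127 and 0.0541). Macrophage markers took 0.00389% and 0.00497% and then 0.00592% to 0.00871% (1 of 6 called higher, C1qa). Most of that share is Vcam1 and Csf1r, which did not pass (log2 fold change 0.30 and -0.27, edgeR adjusted p = 0.699 and 0.659). C1qb and C1qc had log2 fold changes of 2.58 and 3.24 (edgeR adjusted p = 0.0955 and 0.136). C1qc was at 0 in control replicate 1, and Cd5l at 0 in all libraries used but MC38 replicate 3. Erythroid markers took 0.0260% and 0.0179% and then 0.0166% to 0.0184% (none of 7 called in edgeR, 1 lower at an unadjusted p under 0.05). HSC markers took 0.153% and 0.174% and then 0.159% to 0.181% (none of 12 called in edgeR, 1 higher at an unadjusted p under 0.05). The part of these lists in the levels of the biogenesis genes was not tested.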

How the data were processed

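The deposited table holds whole-number read counts per Ensembl gene. The submitters' processing notes name the build mm10 and the tools HTSeq 0.10.0, STAR 2.6.1 and Trim Galore 0.5.0. Annotation, strand setting and filters: not given in the sources used here. Per the labels' protocols, cDNA was amplified with 12 PCR cycles and no molecular identifiers are named, so PCR copies count as reads. Symbols and coordinates came from GENCODE M21 (GRCm38), which named 27797 of 28786 IDs, and 2 listed genes were matched by RefSeq synonym.

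MC38 (n = 4) was compared with control (n = 2) in edgeR 4.0.16 (R 4.3.3) with TMM, filterByExpr and its quasi-likelihood test (robust), with p-values adjusted by Benjamini-Hochberg over 14226 genes, tested on simulated data first. The threshold was 0.05, the common biological coefficient of variation 0.366, and all tests were two-sided. Permutation tests used log2(CPM + 0.5). DESeq2 1.42.0 and limma 3.58.1 served as alternatives. Members and lists were chosen with earlier results of these data known. All members are named; each role group's smallest p and each call are given in full, and of the ribosomal proteins the calls. Protein sequence features were not analysed here. The replicate numbers carry no stated pairing.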

Additional observations from a re-analysis of the deposited data

How the results depend on the processing

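Over 15 alternatives 28 of the 32 members never passed, and 23 kept their sign. Members called lower, 1 in the main analysis, numbered 0 with scaling to the library total only, with upper quartile scaling, with limma-voom and without immunoglobulin genes, and 3 with a replicate block (Polr1c, Npm1 and Nop58); leaving out single libraries gave 0 to 1. Members called higher numbered 1 with DESeq2 and with control replicate 3 (Nop56 in both) and otherwise 0. Calls among all genes, 148 higher and 81 lower, were 302 and 202 with no filter, 626 and 395 with DESeq2, 90 higher with limma-voom, 791 and 663 with control replicate 3, 95 and 36 without immunoglobulin genes, and 269 and 190 with the replicate block. Leaving out single libraries gave 44 to 259 higher and 16 to 183 lower. The members' median, -0.179, was -0.099 with the block and -0.18 to -0.118 without single libraries. The summed share difference, -0.0318 percentage points, stayed between -0.0386 and -0.0243. The block gives each replicate number its own term, and MC38 replicates 3 and 4 have no control of that number in use. Its fold changes therefore compare replicates 1 and 2 only. MC38 libraries 3 and 4, the nearest to the controls for Npm1 and Nop58, carry no weight in them.

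Ribosomal protein genes called lower, 4, numbered 1 with upper quartile, 15 with no filter, 23 with DESeq2, 22 with control replicate 3, 10 with the block, 2 without immunoglobulin genes and 0 to 19 without single libraries; 1 was higher with DESeq2, control replicate 3 or the block. Other pathway genes called higher and lower, 0 and 0, were 1 and 1 with no filter, 2 and 3 with DESeq2, 2 and 10 with control replicate 3, and 0 and 1 with the block.

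Signs turned only for members that never passed. With the block the log2 fold change was -0.0232 for Dkc1, -0.0284 for Heatr1, -0.033 for Ltv1 and -0.283 for Rrs1, and with the library total only it was 0.0107 for Nolc1. Leaving out single libraries gave -0.15 to 0.116 for Nolc1, -0.213 to 0.331 for Utp20, -0.0117 to 0.165 for Heatr1, -0.772 to 0.134 for Rrp12, -0.549 to 0.099 for Bysl, -0.0381 to 0.204 for Ltv1, -0.38 to 0.0208 for Pes1 and -0.143 to 0.24 for Rrs1. The signs turned without control 1 (Nolc1, Utp20, Rrp12), control 2 (Bysl, Ltv1, Pes1, Rrs1), MC38 library 2 (Utp20) or MC38 library 3 (Nolc1, Utp20, Heatr1, Rrs1). The causes were not tested.

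Deviations from the group means correlated at 0.067 for replicates 1 and at -0.04 for replicates 2. The deviations of 2 controls mirror each other, so these values cannot show whether the replicate numbers pair the samples. With 2 controls, small differences were not detectable at this spread. Protein sequence features were not analysed.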

Other observations

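The MC38 libraries were unequal in several genes of protein and ribosome production, and 3 examples are given first. Rpl5, which carries 5S rRNA into the 60S subunit, stood at 48.2 and 50.1 CPM in control and at 34.1, 43.8, 71.1 and 66.5 CPM in MC38 libraries 1 to 4. These levels are far below those of most ribosomal protein genes, and the doubt about counts of genes with processed copies may apply to Rpl5. Rsl1d1, a 60S assembly factor, stood at 166 and 159 CPM and at 164, 181, 235 and 237 CPM. Dimt1, the 18S rRNA dimethyltransferase, stood at 22.3 and 14.6 CPM and at 17.2, 34.5, 52.0 and 30.8 CPM. None of the 3 passed the test (edgeR adjusted p = 0.864, 0.352 and 0.298), and all 3 were chosen after their values were seen.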
